A study of Mus musculus with 8 samples.

Results

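This account concerns the genes of the proteasome, the protease complex that degrades ubiquitin-tagged proteins, in mouse CD4 T cells labelled as wild type or as lacking the transcriptional repressor Bcl6. Its members are the genes whose symbol is Psm followed by a letter from a to g and a number, taken from probe sets that the platform annotation pairs with 1 symbol. There were 48 such genes among 19938 genes on the array, and where a gene had several probe sets the one with the highest mean was used. Messenger RNA was measured on 8 Affymetrix whole-transcript arrays, 4 labelled wild type (WT) and 4 labelled as a T cell-specific conditional Bcl6-/- genotype (KO). All 8 samples were naive CD4 T cells, sorted and then cultured for 24 hours with stimulating antibodies to CD3 and CD28, blocking antibodies against TGF beta, interferon gamma and IL-4, and the cytokines IL-6 and IL-21. The labels give the cell type as follicular helper T (Tfh) cells and the source as naive CD4 T cells. They name no Cre driver, strain, age or sex. Nor is it stated that replicate arrays came from separate mice, so the replicate spread behind every p-value may be technical.

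The proteasome is a barrel-shaped core particle capped by regulatory particles. Alpha subunits form the outer rings and the gate of the barrel, and beta subunits form the inner rings that hold the catalytic sites. The regulatory particle binds ubiquitin chains, removes them, and unfolds the substrate with a ring of ATPases. In lymphocytes the standard catalytic subunits Psmb6, Psmb7 and Psmb5 can be replaced by Psmb9, Psmb10 and Psmb8, which makes the immunoproteasome that produces peptides for MHC class I presentation. Interferon gamma, which was blocked in these cultures, is the classic inducer of that exchange. The transcription factor Nfe2l1 (also called Nrf1) raises the transcription of proteasome genes when proteasome activity is short.

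The 250 bases upstream of the start of 4 genes are printed because 2 of them, Psma2 and Ngly1, passed the test below, and because Psmb8 and Psmb9 are immunoproteasome genes that lie beside Tap1 on chromosome 17. Sequences are from RefSeq (GRCm38.p6), 5′ to 3′ on the strand of the gene, and capitals mark motifs found by search on both strands.
Psma2, chr13:14612992-14613241, plus strand: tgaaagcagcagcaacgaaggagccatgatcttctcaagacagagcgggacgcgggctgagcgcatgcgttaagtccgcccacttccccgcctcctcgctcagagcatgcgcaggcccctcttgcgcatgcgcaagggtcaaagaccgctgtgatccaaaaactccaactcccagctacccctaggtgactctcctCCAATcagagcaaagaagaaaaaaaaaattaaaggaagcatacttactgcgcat
Ngly1, chr14:16249064-16249313, plus strand: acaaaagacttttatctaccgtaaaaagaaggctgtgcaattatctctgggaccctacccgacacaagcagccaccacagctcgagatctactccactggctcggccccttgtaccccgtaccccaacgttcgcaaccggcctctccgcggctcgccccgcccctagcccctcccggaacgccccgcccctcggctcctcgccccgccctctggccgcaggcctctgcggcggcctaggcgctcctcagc
Psmb8, chr17:34197945-34198194, plus strand: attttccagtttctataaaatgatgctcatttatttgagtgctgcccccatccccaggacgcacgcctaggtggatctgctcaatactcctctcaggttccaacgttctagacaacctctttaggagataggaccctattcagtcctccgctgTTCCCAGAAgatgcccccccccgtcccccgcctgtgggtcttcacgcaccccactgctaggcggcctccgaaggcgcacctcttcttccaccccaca
Psmb9, chr17:34187331-34187580, minus strand: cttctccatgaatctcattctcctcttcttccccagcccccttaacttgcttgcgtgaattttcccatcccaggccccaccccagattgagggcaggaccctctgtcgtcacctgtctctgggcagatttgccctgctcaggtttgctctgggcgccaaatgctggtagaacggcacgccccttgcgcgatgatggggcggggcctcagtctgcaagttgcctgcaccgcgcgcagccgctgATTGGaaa

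The motifs searched were the palindrome TTCNNNGAA, which STAT factors and Bcl6 can bind, the antioxidant response core TGACNNNGC of the Nfe2l1 type, the interferon regulatory factor motif (GAAA, any 2 bases, GAAA) and the CCAAT box. Psmb8 held 1 palindrome, TTCCCAGAA, whose first base lay 97 bases before the start. Psma2 held 1 CCAAT box, 54 bases before the start, Psmb9 held 1 on the opposite strand, and none of the 4 motifs was found in the Ngly1 window. Of 43 windows of 40 proteasome genes, 2 held the palindrome (4.65%, against 7.02% of 32851 windows of all genes), those of Psmb8 and Psmg1. The antioxidant response core was in 5 windows (11.6%, against 10.2%), those of Psmb5, Psmb6, Psmc6, Psmd12 and Psmd9. The interferon motif was in 3 (6.98%, against 2.98%), those of Psmb3, Psmd4 and Psmd9, none of them an immunoproteasome gene. The CCAAT box was in 14 (32.6%, against 33.8%). Psmb9 and Tap1 are transcribed in opposite directions from starts 225 bases apart, so the same stretch serves as the upstream sequence of both. These matches describe the letters only.

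The targeted gene, Bcl6, had a higher signal in every KO-labelled array (9.08, 9.15, 9.18 and 9.19) than in any WT array (8.61, 8.91, 8.78 and 8.79), and it rose by 0.38 on the log2 scale (limma adjusted p = 0.0303). That call was lost with the replicate block (limma adjusted p = 0.0606), with no filter (0.0595) and in 5 of 8 fits with 1 array left out, those without WT replicate 3 or 4 or KO replicate 2, 3 or 4 (0.0591 to 0.110). Its single probe set may lie outside the deleted exons, which no source used here places, and so cannot serve as a check of the genotype. Every direction below is that of the arrays as labelled. Of 7 T cell markers on the array all lay above the expression floor, as did all 8 Tfh markers, of which Bcl6 and Cd200 were called higher and Tox lower. Both CD8 T cell markers, Cd8a and Cd8b1, lay above it too, as did the 1 erythroid marker analysed, Slc4a1, and none of these 3 was called. Of 7 B cell, 8 myeloid and dendritic and 5 NK markers, 1, 0 and 1 did, and none of these was called different. The NK marker above the floor, Prf1, was lower in every KO-labelled array (-0.44, limma adjusted p = 0.102), and its part in the results below was not tested. KO replicate 1 stood apart: it was the lowest of the 4 KO-labelled arrays in 53.8% of tested genes and in 30 of 46 proteasome genes (65.2%). Results without it are given for several genes below.

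Of the 48 proteasome genes, 46 lay above the expression floor (the 40th percentile of named probe sets) in all 8 arrays, with log2 signals from 8.01 to 13.65. The other 2 are the tissue-restricted forms. Psma8, the alpha subunit of the testis proteasome, stood between 5.80 and 6.07 and was under the floor in every array. Psmb11, the catalytic subunit of the thymic cortical epithelium, stood between 6.77 and 7.39, highest in KO replicate 1, and was above the floor in 3 arrays. Both were left out of the test.

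Proteasome genes differed little between the genotypes. With limma, fitted to 11926 genes with p-values adjusted over all of them by the Benjamini-Hochberg method, and a threshold of 0.05, the comparison called 1 of the 46 (2.17%), the alpha subunit gene Psma2, lower in the KO-labelled arrays, and called none higher. Over all tested genes it called 1.32%, with 0.671% lower and 0.646% higher, so the share among proteasome genes is near that background. The median difference, KO minus WT on the log2 scale, was -0.02375 over the 46 and -0.0175 over all tested genes, and 27 of the 46 (58.7%) had a negative difference, against 57.9% of all tested genes. The size of the difference stayed under 0.1 in 27 of the 46, a smaller share than over all tested genes (8178 of 11926). The median size was 0.07125 over the 46 and 0.065 over all tested genes. In cultured populations such as these, fewer cells of a type and less RNA per cell cannot be told apart. The widest 95% confidence interval among the 46 reached 0.163 to either side of the estimate.

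**Figure D1:**
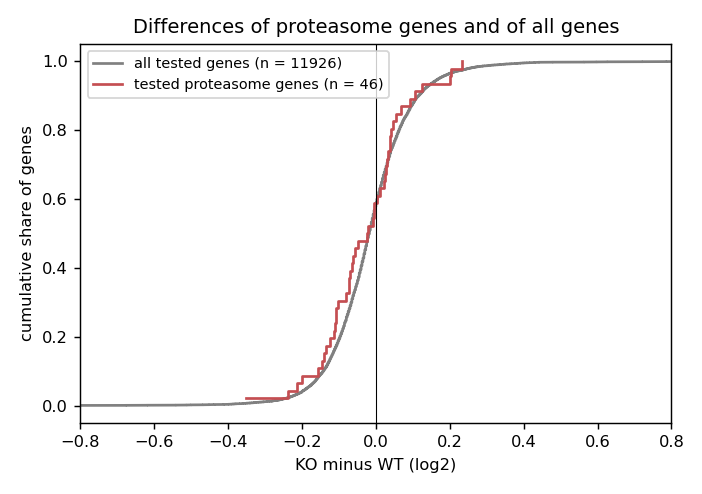
Cumulative share of genes (vertical axis) against the log2 difference KO minus WT (horizontal axis), for the 46 tested proteasome genes in red and all 11926 tested genes in grey. The curves run close to each other, with medians of -0.02375 and -0.0175, and the lowest step of the red curve is Psma2 at -0.35.

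At an unadjusted p under 0.05 there were 12 of the 46 (26.1%), 3 higher and 9 lower, where all tested genes gave 16.6%, with 6.15% higher and 10.5% lower. The 4 KO-labelled values lay wholly outside the range of the WT values in 9 of the 46 (19.6%), 2 higher and 7 lower, where all tested genes gave 10.8%, with 3.10% higher and 7.66% lower. Psma3 and Psmd7 were the 2 higher, and Psma2, Psmb6, Psmc2, Psmc4, Psmd3, Psmd4 and Psme4 the 7 lower. These shares were not tested against the background.

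The alpha subunits of the core held both the most negative and the most positive difference among the tested genes with a Psm symbol. Psma2 had log2 signals of 11.26, 11.21, 11.24 and 11.14 in WT replicates 1 to 4 and 10.67, 10.90, 10.88 and 10.99 in KO replicates 1 to 4. Every KO-labelled value lay below every WT value, and KO replicate 1 was the lowest. Psma2 fell by 0.35 ± 0.0684 (SE, n = 4 per group), or 1.28-fold (limma adjusted p = 0.0465). The call sat close to the threshold: in fits with 1 array left out, Psma2 was called without KO replicate 1 (-0.29, limma adjusted p = 0.0112) and without KO replicate 4 (0.0453) only, with adjusted p from 0.0616 to 0.157 in the other 6. It also missed the threshold with the replicate number as a block (0.118), with arrays centred on their medians (0.0872), with no filter (0.0933) and with the floor set over all probe sets (0.0514).

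Psma3, another alpha subunit, went the other way without a call. Its values were 11.94, 11.95, 11.81 and 11.80 in the WT arrays and 12.03, 12.10, 12.13 and 12.17 in the KO-labelled arrays, a difference of 0.23 ± 0.0548 (SE, limma adjusted p = 0.0758). The groups did not overlap, and the KO-labelled arrays were higher. The annotation pairs 3 probe sets with Psma3 under the same accessions. The other 2 differed by 0.21 and 0.27, again with no overlap. Any of the 3, the one used here included, may read the same transcript as the others or a near-identical copy. Without KO replicate 1, Psma3 passed (0.26, limma adjusted p = 0.0223). Psma6 differed by -0.145 (limma adjusted p = 0.207), Psma5 by -0.1025 (0.382) and Psma7 by 0.0925 (0.585), while Psma1 and Psma4 differed by 0.0025 and -0.0225. The median of the 7 tested alpha subunits was -0.0225.

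Among the 7 standard beta subunits tested, none was called and the median difference was -0.0725. Psmb6, the caspase-like catalytic subunit, had values of 11.59, 11.45, 11.49 and 11.44 in the WT arrays and 11.14, 11.31, 11.25 and 11.42 in the KO-labelled arrays. The groups were separated by a narrow gap, with KO replicate 1 lowest, and the difference was -0.21 ± 0.0653 (SE, limma adjusted p = 0.144). Without KO replicate 1 it shrank to -0.166 (limma adjusted p = 0.0988). Psmb5, the chymotrypsin-like subunit, gave 13.05, 13.00, 13.10 and 13.23 in the WT arrays and 13.13, 13.05, 13.16 and 13.15 in the KO-labelled arrays, which overlapped (0.0275 ± 0.0578, SE, limma adjusted p = 0.883). Psmb7, the trypsin-like subunit, gave 11.49, 11.50, 11.58 and 11.65 against 11.55, 11.59, 11.69 and 11.61, again with overlap (0.0550 ± 0.0534, SE, limma adjusted p = 0.686). The structural subunits Psmb1, Psmb2, Psmb3 and Psmb4 differed by -0.135 to -0.0050, with limma adjusted p from 0.268 to 0.979.

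The 3 immunoproteasome subunits had no call, and their differences fell on both sides of 0. Psmb8 had log2 signals of 10.78, 10.91, 10.92 and 10.94 in WT replicates 1 to 4 and 10.87, 10.90, 10.82 and 10.93 in the KO-labelled arrays. The groups overlapped, WT replicate 1 was lowest, and the difference was -0.0075 with a 95% confidence interval from -0.12 to 0.11 (limma adjusted p = 0.969). Psmb9 gave 10.35, 10.28, 10.40 and 10.24 against 10.32, 10.28, 10.39 and 10.43. The values interleaved, and the difference was 0.0375 (95% confidence interval -0.0836 to 0.159, limma adjusted p = 0.816). Psmb10 gave 10.20, 10.38, 10.42 and 10.42 against 10.31, 10.28, 10.27 and 10.31. All 4 KO-labelled values lay inside the WT range, which WT replicate 1 widened, and the difference was -0.0625 (95% confidence interval -0.189 to 0.0641, limma adjusted p = 0.661). Without WT replicate 1 it was -0.114, again without a call (limma adjusted p = 0.285). The sign of the Psmb8 difference changed with the scaling and with single arrays, so it has no direction here.

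**Figure D2:**
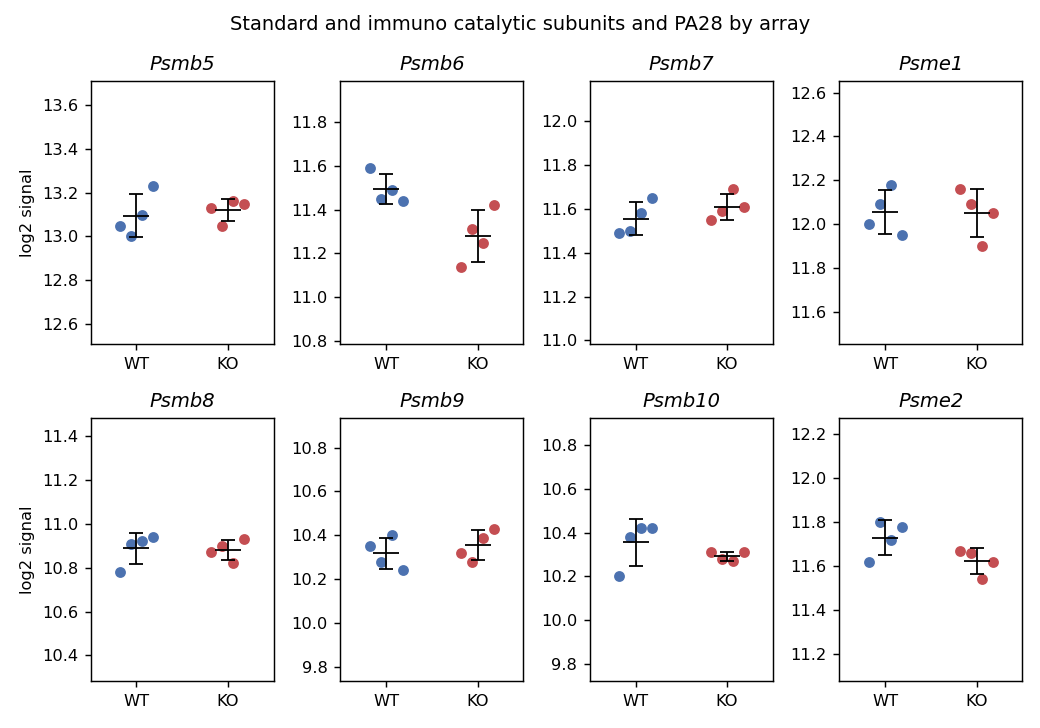
Log2 signal (vertical axes, each spanning 1.2 units around the gene's mean) of 8 genes by genotype: points are the 4 arrays of a group, and bars give the mean and SD. WT and KO-labelled points overlap in Psmb5, Psmb7, Psmb8, Psmb9, Psmb10, Psme1 and Psme2, while the Psmb6 groups are separated between 11.42 and 11.44.

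Each immunoproteasome subunit was also set against the standard subunit it replaces, within each array. Only the change of this log2 difference is read, since the probe sets of 2 genes differ in brightness. For Psmb8 over Psmb5 it changed by -0.0350 and for Psmb10 over Psmb7 by -0.1175, and in both the groups overlapped. For Psmb9 over Psmb6 it was -1.24, -1.17, -1.09 and -1.20 in the WT arrays and -0.82, -1.03, -0.86 and -0.99 in the KO-labelled arrays, a change of 0.25 with no overlap. Of that pair, Psmb6 differed by -0.21 and Psmb9 by 0.0375. No test was made of these differences. Centring the arrays and the choice of probe set could not change them. Centring cancels within an array, and none of these genes had a further probe set to choose. Quantile normalization gave -0.0297 for Psmb8 over Psmb5, -0.1025 for Psmb10 over Psmb7 and 0.264 for Psmb9 over Psmb6. With single arrays left out, Psmb9 over Psmb6 ran from 0.215 (without KO replicate 1) to 0.285 (without KO replicate 2). Psmb8 over Psmb5 changed sign without WT replicate 2.

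The regulatory particle had no call among 17 tested genes with a Psm symbol, whose median difference was -0.0650. Sem1, a lid subunit without such a symbol, is not among them and is given below with the partners. The 6 ATPases of the particle had a median of -0.08625. Psmc2 gave 10.74, 10.55, 10.58 and 10.55 in the WT arrays and 10.24, 10.50, 10.34 and 10.39 in the KO-labelled arrays. All KO-labelled values were lower, KO replicate 1 the lowest and WT replicate 1 the highest, and the difference was -0.24 ± 0.0672 (SE, limma adjusted p = 0.115). Without KO replicate 1 it shrank to -0.195 (limma adjusted p = 0.0813). Psmc4 differed by -0.140 with no overlap (limma adjusted p = 0.175), and Psmc1 and Psmc3 by -0.1075 and -0.0650 with overlap. Psmc5 (0.0475, from 10.02 to 10.16 in the WT arrays and 10.05 to 10.25 in the KO-labelled ones) and Psmc6 (0.0375) were the 2 with a positive difference, with limma adjusted p of 0.758 and 0.789.

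Among the 11 non-ATPase subunits, the ubiquitin receptor and the deubiquitinase partner stood at opposite ends. Psmd4, which binds ubiquitin chains, gave 10.22, 10.24, 10.18 and 10.15 in the WT arrays and 9.91, 10.08, 9.97 and 10.03 in the KO-labelled arrays. No values overlapped, and the difference was -0.200 ± 0.0504 (SE, limma adjusted p = 0.0861). Without KO replicate 1 it shrank to -0.171 (limma adjusted p = 0.0538). Psmd7, which pairs with the deubiquitinase Psmd14 in the lid, gave 11.72, 11.72, 11.68 and 11.71 against 11.84, 11.91, 11.86 and 12.02. Here every KO-labelled value was higher, and the difference was 0.200 ± 0.0501 (SE, limma adjusted p = 0.0854). Without KO replicate 1, Psmd7 passed (0.22, limma adjusted p = 0.0278).

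The other lid and base subunits had smaller differences. Psmd14 itself differed by 0.125 (limma adjusted p = 0.370), Psmd6 by -0.1575 (0.254) and Psmd3 by -0.110 (0.268, no overlap). The remaining 6, Psmd1, Psmd2, Psmd8, Psmd11, Psmd12 and Psmd13, lay between -0.0725 and 0.0675, with limma adjusted p from 0.476 to 0.886. Psmd2 and the chaperone gene Psmg1 lie on chromosome 16, as Bcl6 does, and neither was called (-0.0725 and -0.125, limma adjusted p = 0.580 and 0.390).

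**Figure D3:**
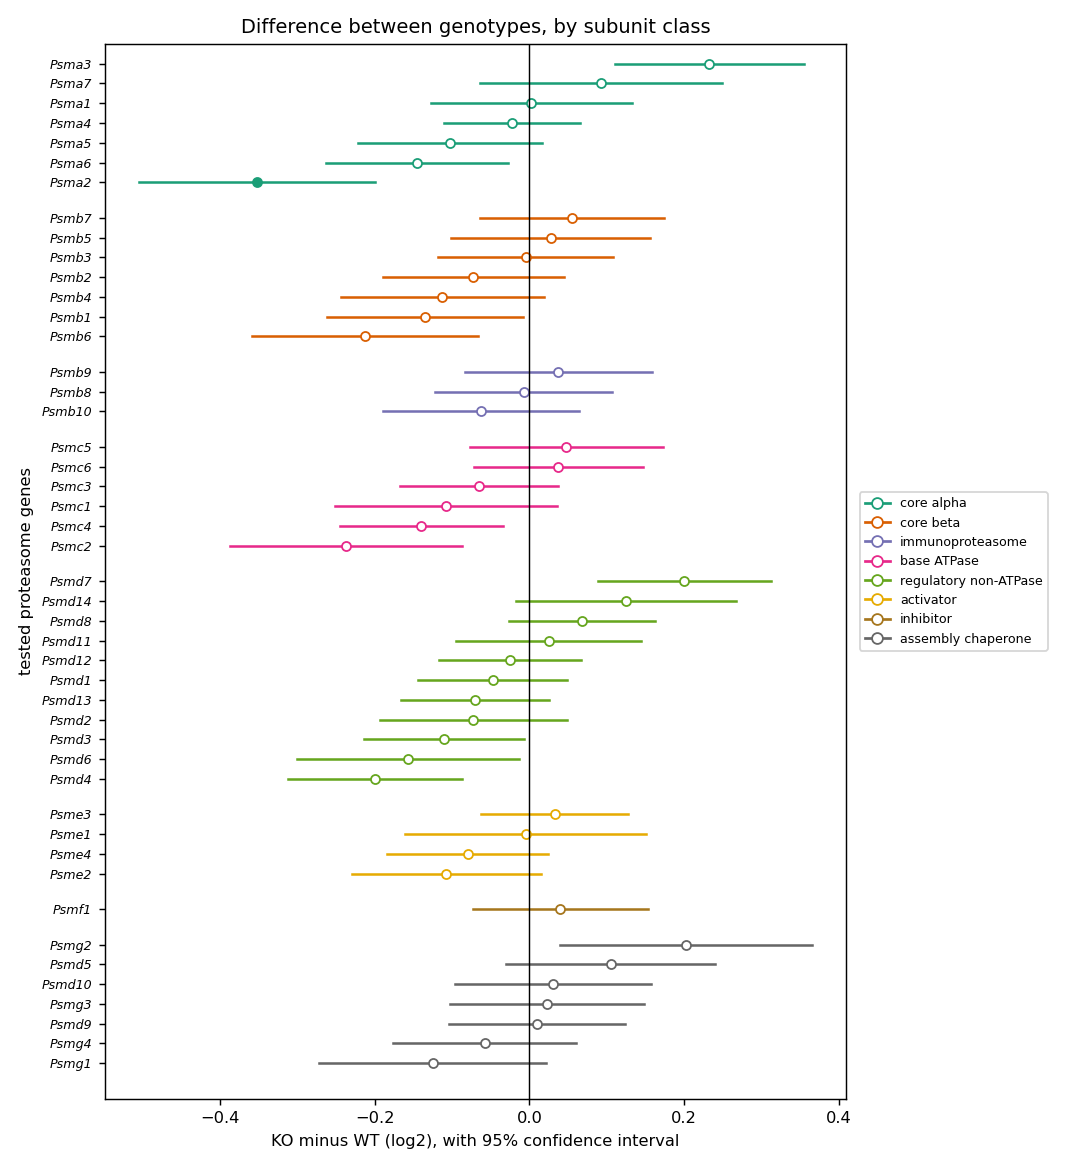
Log2 difference KO minus WT (horizontal axis) of each of the 46 tested proteasome genes, coloured by subunit class, with 95% confidence intervals; a filled point passed the limma threshold after adjustment over all genes. Psma2 alone is filled, at -0.35, and the immunoproteasome genes lie between -0.0625 and 0.0375.

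Activators of the core showed no call among 4. Psme1 and Psme2 together form the interferon-inducible cap PA28. Psme1 gave 12.00, 12.09, 12.18 and 11.95 in the WT arrays and 12.16, 12.09, 11.90 and 12.05 in the KO-labelled arrays, fully interleaved (-0.0050, 95% confidence interval -0.161 to 0.151, limma adjusted p = 0.987), with a sign that changed with the scaling. Psme2 gave 11.62, 11.80, 11.72 and 11.78 against 11.67, 11.66, 11.54 and 11.62, which overlapped through WT replicate 1 (-0.1075, 95% confidence interval -0.23 to 0.0147, limma adjusted p = 0.369). A further probe set, which the annotation pairs with both Psme2 and its copy Psme2b, was not used. Psme3, the nuclear activator, stood between 12.67 and 12.70 in the WT arrays and 12.65 and 12.76 in the KO-labelled ones (0.0325, limma adjusted p = 0.789), and Psme4 differed by -0.0800 with no overlap (0.444). The inhibitor Psmf1 differed by 0.0400 (limma adjusted p = 0.779), from 10.89 to 10.98 in the WT arrays and 10.89 to 11.07 in the others.

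The 7 assembly chaperones, which help build the core and the base but are not part of the finished particle, had a median difference of 0.0225, and 5 were positive. Psmg2 gave 11.12, 11.16, 11.11 and 11.04 in the WT arrays and 11.13, 11.24, 11.43 and 11.44 in the KO-labelled arrays. The groups overlapped through KO replicate 1, and the difference was 0.20 ± 0.0730 (SE, limma adjusted p = 0.204). Without that array it passed (0.26, limma adjusted p = 0.0306). Psmg1, the partner of Psmg2 in one chaperone complex, differed by -0.125, from 10.63 to 10.86 in the WT arrays and 10.47 to 10.67 in the KO-labelled ones. The core chaperones Psmg3 and Psmg4 and the base chaperones Psmd5, Psmd9 and Psmd10 differed by -0.0575 to 0.105, with limma adjusted p from 0.440 to 0.959.

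Without KO replicate 1 the test called 3 proteasome genes higher (Psma3, Psmd7 and Psmg2) and 1 lower (Psma2), 4 of 46, where over all genes it called 6.56%, with 3.88% higher and 2.67% lower. Without any 1 of the other 7 arrays it called 1 at most, Psma2 without KO replicate 4. The median distance of a proteasome gene from its group mean was 0.06625 in KO replicate 1 and 0.0275 to 0.03375 in the other 3 KO-labelled arrays. In the WT arrays it was 0.02875 to 0.06125, where WT replicate 4 was nearly as far out for these genes. Over all tested genes the median distance was 0.115 in KO replicate 1. There it was 0.04 to 0.0725 in the other KO-labelled arrays and 0.035 to 0.0575 in the WT arrays. The plot of deviations by array shows distances from the WT mean instead.

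**Figure D4:**
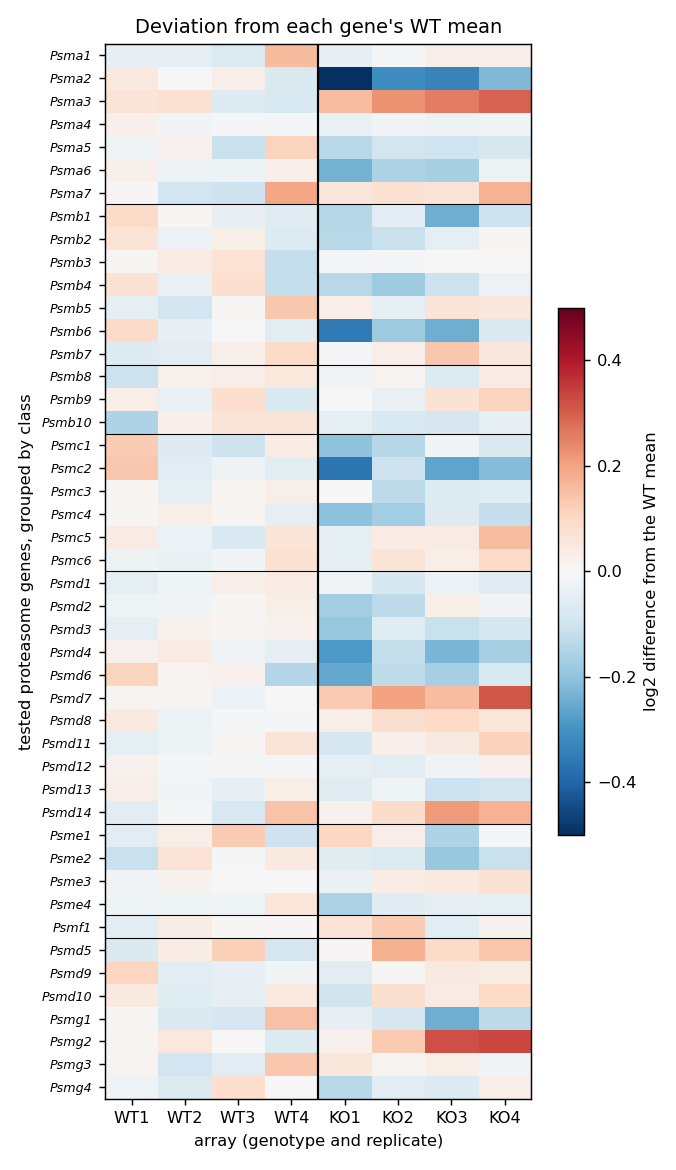
Log2 deviation of each of the 46 tested proteasome genes (rows, grouped by subunit class) from its own WT mean, in each of the 8 arrays (columns); red is higher and blue lower, and the colour scale ends at 0.5 to either side. Psma2 is blue and Psma3 and Psmd7 red in all 4 KO-labelled arrays, and KO replicate 1 is the lowest KO-labelled array in 30 rows.

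The wider pathway was read from 3 lists of 52 genes without a Psm symbol, 39 of which had a probe set with 1 symbol, all 39 tested. The other genes of these lists were not analysed here. Of 12 proteasome partners and transcription factors, 1 was called higher and none lower (backgrounds 0.646% and 0.671%). This was Ngly1, the cytosolic enzyme that strips N-linked sugars from misfolded glycoproteins and whose action Nfe2l1 needs to become active. Ngly1 gave 10.34, 10.24, 10.17 and 10.37 in the WT arrays and 10.79, 10.82, 10.91 and 10.98 in the KO-labelled arrays, each of which lay above all WT values. It rose by 0.595 ± 0.0625 (SE, n = 4 per group), or 1.51-fold (limma adjusted p = 0.00333). The exact two-sided permutation test gave p = 0.0286, which is as low as 4 arrays against 4 can reach. Ngly1 passed in all 18 alternative fits, with differences from 0.56 to 0.63 and adjusted p up to 0.0239.

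Nfe2l1 itself stood at 10.11, 10.13, 10.23 and 10.14 in the WT arrays and 10.11, 10.10, 10.22 and 10.14 in the KO-labelled arrays. The groups overlapped throughout, at a difference of -0.0100 whose sign changed with the scaling (95% confidence interval -0.118 to 0.0982, limma adjusted p = 0.955). Sem1, a small subunit of the lid, gave 10.74, 10.55, 10.39 and 10.52 against 10.02, 10.20, 10.13 and 10.32, lower in every KO-labelled array. Its difference of -0.38 ± 0.0840 (SE) missed the threshold (limma adjusted p = 0.0597) and passed without KO replicate 1 (-0.33, limma adjusted p = 0.0394). Nfe2l2, the stress-response relative of Nfe2l1, gave 10.57, 10.87, 10.77 and 10.69 against 10.53, 10.57, 10.41 and 10.47, meeting only at 10.57 (-0.23 ± 0.0683, SE, limma adjusted p = 0.133).

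**Figure D5:**
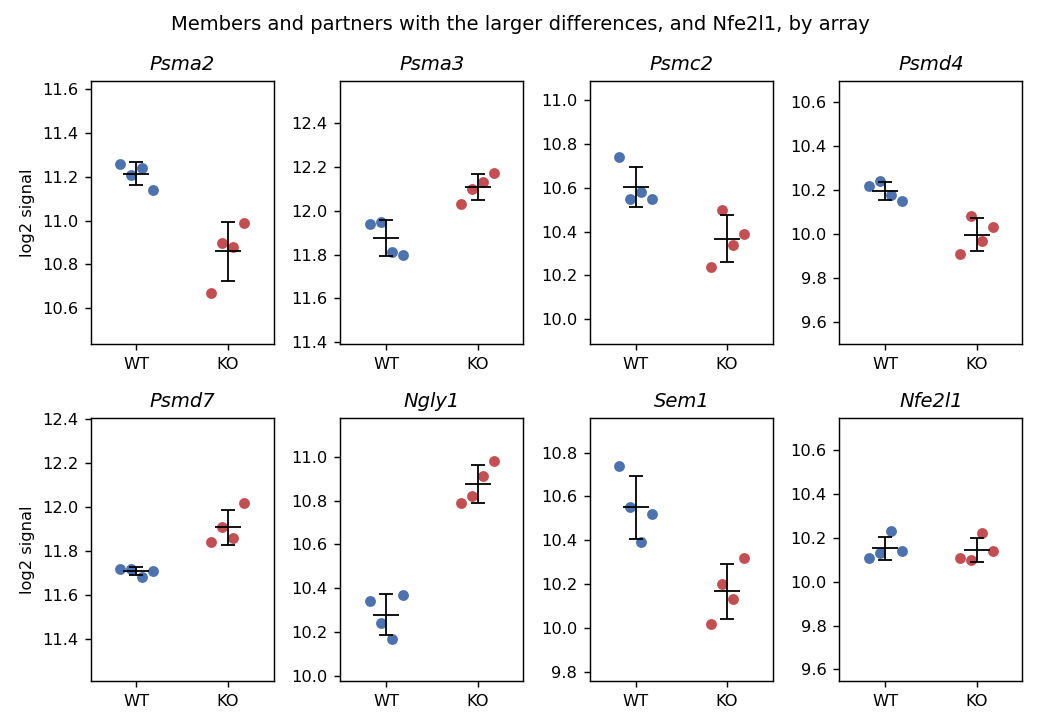
Log2 signal (vertical axes, each spanning 1.2 units around the gene's mean) by genotype for 5 proteasome genes and 3 partners; points are the 4 arrays of a group, bars the mean and SD. Ngly1 is separated most widely, at 10.17 to 10.37 against 10.79 to 10.98, while the Nfe2l1 points overlap fully.

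No gene was called among 11 ubiquitin, shuttle and segregase genes (median difference -0.0575). The autophagy receptor gene Sqstm1 had the smallest p: it gave 11.31, 11.43, 11.36 and 11.22 in the WT arrays and 11.17, 11.16, 11.17 and 11.16 in the KO-labelled arrays, lower in each of them (-0.165 ± 0.0516, SE, limma adjusted p = 0.147). The shuttle factor gene Ubqln4 differed by -0.1075 (limma adjusted p = 0.310).

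None of 16 genes of MHC class I presentation and the interferon gamma response was called either, with a median difference of -0.02375. B2m, the light chain of MHC class I molecules, stood at 13.57 to 13.67 in the WT arrays and 13.70 to 13.74 in the KO-labelled arrays, without a call (0.0900, limma adjusted p = 0.337). Tap1, the peptide transporter gene that shares its upstream stretch with Psmb9, gave 10.62, 10.61, 10.69 and 10.71 against 10.56, 10.56, 10.67 and 10.62, with overlap (-0.0550, limma adjusted p = 0.643). Irf1, an interferon-induced activator of immunoproteasome genes, gave 9.87, 9.86, 9.81 and 9.93 against 9.73, 9.75, 9.55 and 9.72, lower in every KO-labelled array (-0.18 ± 0.0561, SE, limma adjusted p = 0.146). These values are of 1 probe set, and with the mean over the gene's probe sets Irf1 differed by -0.0825 (limma adjusted p = 0.487). Irf8, a related factor, gave 10.36, 11.01, 11.05 and 10.69 against 10.30, 10.36, 10.34 and 10.24, a difference of -0.47 ± 0.133 (SE, limma adjusted p = 0.116). WT replicate 1 alone met the KO-labelled range in Irf8, and without it the gene passed (-0.61, limma adjusted p = 0.0264).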

How the data were processed

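The values the authors deposited are on the log2 scale, 1 for each of 35556 probe sets in each array. RMA and Partek are the tools in the submitters' processing notes; versions and the order of steps are not given in the sources used here. RMA commonly equalises array distributions, which would hide a change in a cell's total RNA. The deposited distributions were not fully equal. The expression floor ran from 6.91 in KO replicate 4 to 7.15 in KO replicate 1. The array median ran from 7.35 to 7.42 in the same arrays. Biotin labelling started from 100 ng of RNA, per the labels' protocols. The number of arrays limits the precision.

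The platform annotation gave 1 symbol for 21789, several for 1621, and does not list the other 12146. A gene was tested if at least 4 arrays had it over a floor, each array's 40th percentile among probe sets with 1 symbol, Bcl6 always included. Arrays were grouped by sample title, and KO was set against WT by lmFit and eBayes of limma 3.58.1 (R 4.3.3), two-sided and without a block. Confidence intervals are limma's. Alternatives covered scaling, filter, variance model, array weights, probe set choice, the block, thresholds and single arrays left out; leaving out KO replicate 1 with WT replicate 3, and a floor over all probe sets, were added after seeing the data. The limma fit was tested on simulated data, with independent noise for each gene and no array-wide shift such as that of KO replicate 1. The choice of probe set, the floor, the class medians and the pair differences were not tested in this way. Members, lists, and the genes named (catalytic subunits, PA28, called genes and the extremes of each class or list) were chosen with earlier results of these data known; Nfe2l2 and B2m were added to the named genes after their values were seen. Chromosomes are from RefSeq (GRCm38.p6).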

Additional observations from a re-analysis of the deposited data

Results flagged for a closer look

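In 8 of 138 groups of 4 values examined, 1 array lay far from the other 3, where chance gives about 7. In WT replicate 4, Psma1 (12.15, the others 11.92 to 11.95) and Psme4 (10.85, the others 10.77) were high. In WT replicate 1, Psmc2 (10.74, the others 10.55 to 10.58) and Psmd12 (11.54, the others 11.51) were high and Psmd3 (11.19, the others 11.25 to 11.26) was low. Among the KO-labelled arrays, Psma7 was high in replicate 4 (11.16, the others 11.04 to 11.06), Psme4 low in replicate 1 (10.63, the others 10.73 to 10.74) and Irf1 low in replicate 3 (9.55, the others 9.72 to 9.75).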

How the results depend on the processing

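Over all genes, 77 were called higher and 80 lower, and these counts moved with most settings. The counts over the 46 proteasome genes moved too, and are small because the list is short. Their shares were not tested against those over all genes. Repeated quantile normalization gave 173 higher and 149 lower over all genes (1.45% and 1.25%). It called 2 of the 46 proteasome genes higher (Psma3 and Psmd7) and 1 lower (Psma2). Centring on the array median gave 48 and 30, and no filter 37 and 21, each with 0 lower proteasome genes. A filter at the 50th percentile gave 139 lower. An intensity trend with a robust prior gave 151 and 203 (1.27% and 1.7% of genes), with 2 higher proteasome genes and 1 lower. Array weights gave 1010 and 970 (8.47% and 8.13% of genes), with 4 higher and 6 lower proteasome genes, 3 higher and 2 lower partners, 1 lower ubiquitin gene and 4 lower MHC class I or interferon genes. Sem1 made 1 lower partner with quantile normalization, the 50th percentile, the trend, the threshold of 0.1 and KO replicate 1 with WT replicate 3 left out. A threshold of 0.01 gave 19 and 8, with 0 lower proteasome genes. The threshold of 0.1 gave 182 and 286 (1.53% and 2.4% of genes), with 2 higher and 2 lower proteasome genes. The floor over all probe sets gave 51 lower, with 0 lower proteasome genes, and leaving out KO replicate 1 and WT replicate 3 gave 293 and 150, both added after seeing the data.

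With the replicate block, 25 genes were called higher and 11 lower, with 0 proteasome genes, and Ngly1 kept its call (limma adjusted p = 0.0194). Same-numbered arrays did not all deviate together (r of -0.174 to 0.308 over genes), so the numbers were not taken as pairs. Both arrays of a number correlated best with each other in replicates 2 and 4, not in 1 and 3, so the shared number is a hint at most. With single arrays left out, the counts ran from 22 to 463 higher and from 9 to 319 lower over all genes, the highest of each without KO replicate 1, from 0 to 3 higher and 0 to 1 lower over proteasome genes, and from 0 to 1 lower for partners and for MHC class I and interferon genes.

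Among the 27 genes refitted by name, signs turned in 4, all uncalled and near 0; the other genes were not examined for this. Psmb8 became 0.00406 with quantile normalization, 0.0025 with centring and 0.00667 without KO replicate 1 and WT replicate 3, and ran from -0.0433 to 0.0125 with single arrays left out. Psme1 became 0.005 with centring and ran from -0.0417 to 0.045, and Psmb5 ran from -0.00417 to 0.0725. Nfe2l1 became 0.00516 with quantile normalization, 0.0178 with array weights and 0.0267 without KO replicate 1 and WT replicate 3, and ran from -0.0358 to 0.0158. The cause of these shifts was not tested. Class medians (with scaling, filter, probe set or single arrays changed) and differences within catalytic pairs (the same without the filters) moved by less than the pooled replicate SD. For the pairs this says little, since leaving out 1 of 4 arrays cannot reach that SD, and centring and probe set choice left them unchanged. Signs near 0 turned: the assembly chaperone median was -0.0075 and Psmb8 over Psmb5 0.00417 without WT replicate 2. The immunoproteasome median, which is Psmb8 itself in the full fit, reached 0.0125 without KO replicate 3.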
